A study of Homo sapiens with 12 samples.

Results

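The genes described here encode the mitotic kinesins, spindle proteins and cytokinesis factors, the machinery that separates the chromosomes and then the daughter cells. The members were chosen by name and role, with earlier results of these data known: 39 genes of the 60612 named rows in the count table. The counts of members called below are therefore not an independent test. Of these, 37 had enough reads to be tested among 11803 genes.

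The study sequenced the 3′ ends of transcripts from CAMA-1 cells, a line derived from a human breast cancer, positive for the oestrogen receptor (ER) and labelled as wild-type. Cells received the vehicle DMSO, abemaciclib at 100 nM, fulvestrant at 5 nM, or both drugs, with 3 libraries in each of the 4 groups. Abemaciclib inhibits the kinases CDK4 and CDK6, and fulvestrant binds the ER and causes its degradation. The labels do not restate the doses in the combination, and the study's methods give 5 days of treatment. For abemaciclib those methods name a dose above 100 nM unless otherwise noted, and the dose of the labels is given here. The labels number the replicates, and the study describes the CAMA-1 experiment as done once with 3 biological replicates, so p values measure the spread between cultures of 1 experiment.

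Mitotic kinesins are motor proteins that walk along, slide or shorten microtubules: some push the spindle poles apart, some move chromosomes, and others trim microtubule ends or build the midzone at which the cell cleaves. Most of these genes are transcribed late in the cell cycle, in G2 and mitosis, and their transcripts are scarce in resting cells. Inhibition of CDK4/6 holds ER-positive cells in G1, and loss of ER signalling also limits entry into the cycle. In bulk RNA, a smaller share of dividing cells and less transcript per dividing cell cannot be told apart.

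Many late cell cycle promoters carry a cell cycle genes homology region (CHR), a short element read by the DREAM and MuvB complexes. The choice of members did not use its letters. Most members are late cell cycle genes, however, so a high share of matches follows in part from that choice. RefSeq promoters (GRCh38.p14, 250 bases before to 50 after the start) were found for 35 of the 39 members. RACGAP1, TPX2, FAM83D and PIMREG had none. Letters were searched on both strands as TTTGAA or TTCGAA. Such a match lay in 24 of 35 member promoters (68.6%) and in 16.6% of all 27305 promoters. Between 60 bases before the start and the end of the window the shares were 65.7% of members and 5.46% of all promoters. The sites below have the matched letters in capitals (TTCAAA is TTTGAA read on the other strand), are written 5′ to 3′ on the strand of the gene, and represent one motor or factor of most roles and, last, 3 members that kept much of their transcript.

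KIF11: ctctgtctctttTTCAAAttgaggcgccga
KIF4A: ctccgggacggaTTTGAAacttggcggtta
KIF18B: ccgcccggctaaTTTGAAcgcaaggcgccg
KIF14: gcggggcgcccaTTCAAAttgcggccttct
PRC1: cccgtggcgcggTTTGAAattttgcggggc
CEP55: gcagccgcgggaTTCAAActcccggaagcg
CKAP2L: acaggcgcggcgTTTGAAgaaaaactgtca
KIF22: ggcaccggggaaTTCGAAtgggagaggcgg
CKAP5: ggcccaagcggtTTCAAAcggcttagagca
HAUS8: ggcgggtccggcTTTGAAaagccggcgggt

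These stretches lie, in GRCh38.p14, at chr10:92593090-92593119, plus strand (KIF11), chrX:70290058-70290087, plus strand (KIF4A), chr17:44947754-44947783, minus strand (KIF18B), chr1:200620733-200620762, minus strand (KIF14) and chr15:90994538-90994567, minus strand (PRC1). The other stretches lie at chr10:93496597-93496626, plus strand (CEP55), chr2:112764609-112764638, minus strand (CKAP2L), chr16:29790712-29790741, plus strand (KIF22), chr11:46846246-46846275, minus strand (CKAP5) and chr19:17075449-17075478, minus strand (HAUS8). KIF22 holds the form TTCGAA, which the other 9 sites do not. The box bound by NF-Y, spelled CCAAT, matched 62.9% of member promoters and 35.7% of all. The E2F letters TTTGGCGC, TTTCCCGC, TTTGCCGC or TTTCGCGC matched 3 members (KIF15, NUSAP1 and HAUS8), or 8.57% against 3.33%. In KIF15 the E2F and CHR letters adjoin and share no base. The core oestrogen response element matched no member promoter and 0.0659% of all. A match describes these letters only. Among tested members with a promoter, the 23 with a CHR match had a median log2 fold change of -4.42 in the combination against DMSO and the 10 without one had a median of -3.70. The difference between these medians was not tested.

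Libraries held between 3299119 and 5164667 reads in all, and every library correlated best with another library of its own group. Fulvestrant replicate 3 stood farther from its group than any other library (chi-square per degree of freedom 9.31 and 14.6 against its partners, with 1.85 to 5.43 in all pairs without it). Without it, 23 members were still called lower in the combination than in fulvestrant, as with it. The luminal epithelial markers KRT8, KRT18, KRT19, EPCAM, CDH1, ESR1, GATA3 and FOXA1 were all detected, and their summed level was 5625 to 5949 CPM in DMSO, 6631 to 6782 in abemaciclib, 7087 to 7722 in fulvestrant and 6740.3 to 7445 in the combination. Of 10 markers of fibroblasts, leukocytes and endothelium, 5 (COL1A2, DCN, LUM, CD3E and PECAM1) had 0 reads in all 12 libraries and the summed level of the list was 18.4 to 22.4 CPM in DMSO, 25.6 to 33.1 in abemaciclib, 28.9 to 38.4 in fulvestrant and 24.7 to 28.1 in the combination. The part of these shifts in the results was not tested.

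All levels below are counts per 1000000 reads (CPM) on TMM-scaled library sizes and are compared within a gene, not between genes. Changes are log2 fold changes ± SE from edgeR's quasi-likelihood test, and a member is called when its p value is under 0.05 after Benjamini-Hochberg adjustment over the 11803 genes. Read numbers carry no molecular identifiers, so every counting interval covers counting error only.

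The reads of the whole machinery dropped in steps. The summed level of the 39 members was 2837 ± 69.1 CPM in DMSO (SD, n = 3), 1040 ± 40.0 CPM in abemaciclib, 643 ± 41.3 CPM in fulvestrant and 488 ± 1.52 CPM in the combination, or 36.7%, 22.7% and 17.2% of DMSO. No library of one group overlapped with a library of another. NUMA1, the member that rose, supplied 221 CPM of the sum in the combination, and the other 38 members kept 33.6%, 17.4% and 9.89% of DMSO (267 ± 8.05 CPM in the combination). In 31 of the 37 tested members the means followed the same order, combination below fulvestrant below abemaciclib below DMSO, and in 26 of these no library overlapped with a neighbouring group at any step. Over all genes tested, 13.2% had means in this order and 1.79% had no overlap at any step. The plot of levels by library shows this ladder gene by gene, together with the few members that do not follow it.

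**Figure D1:**
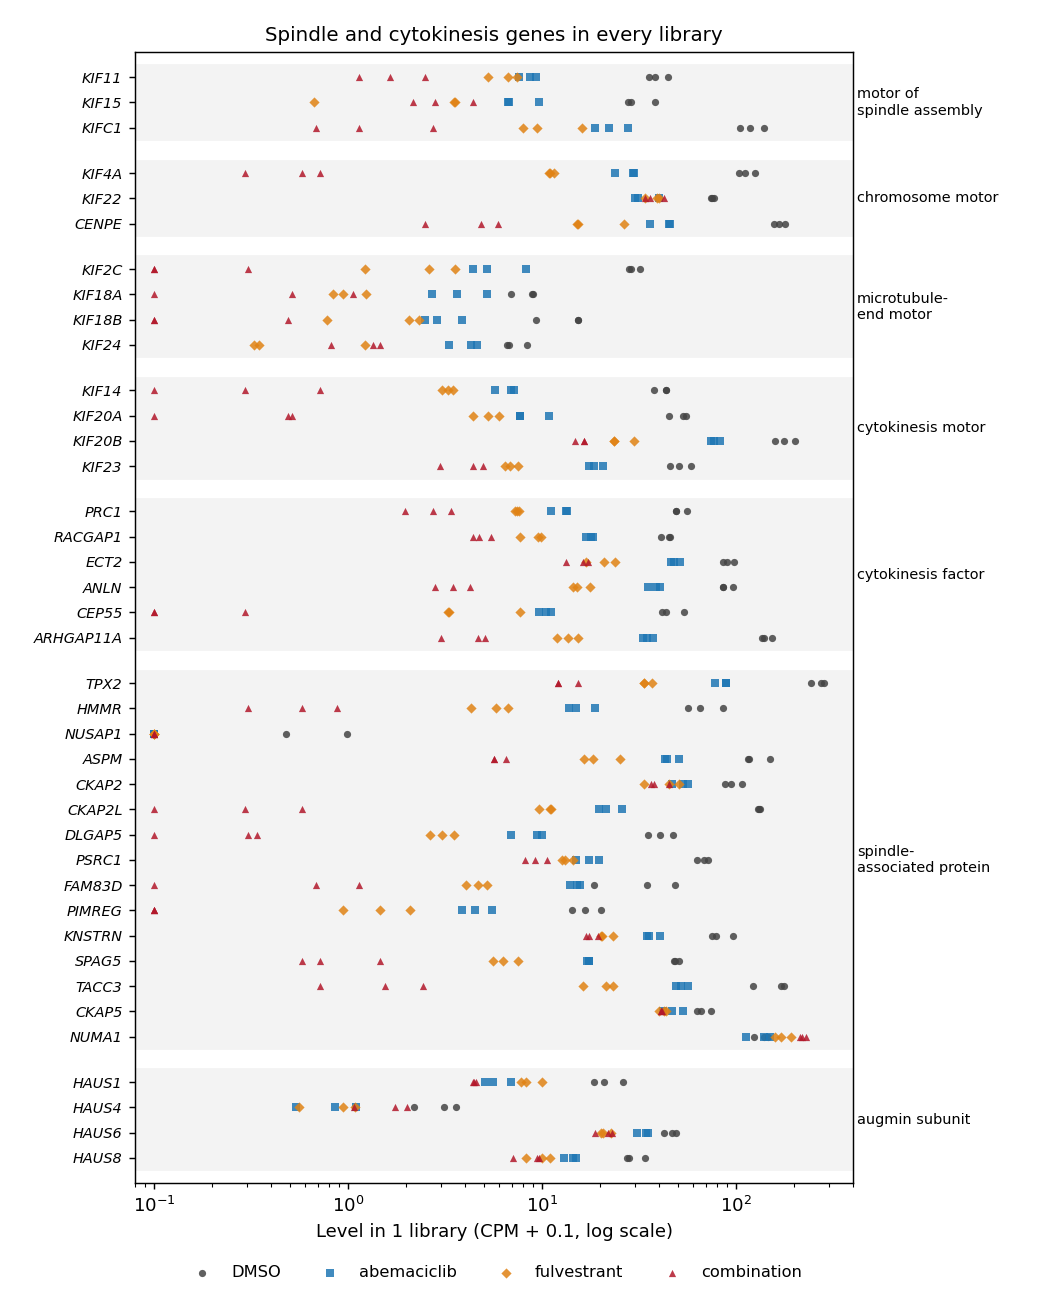
Level of each of the 39 members in every library, in CPM + 0.1 on a log scale, with 3 points per group and members arranged by role. Most rows step down from DMSO through abemaciclib and fulvestrant to the combination, while NUMA1 steps up to 221 CPM and NUSAP1 has reads in 2 DMSO libraries alone. A point at 0.1 is a library with 0 reads.

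Sums and medians put the roles in different orders. In the combination, the summed level fell to 3.19% of DMSO for the motors of spindle assembly, 3.04% for the microtubule-end motors, 6.29% for the cytokinesis motors and 6.58% for the cytokinesis factors. It was 11.8% for the chromosome motors, of which KIF22 supplied most of what was left, 26.1% for the spindle-associated proteins (10.8% without NUMA1), and 35.6% for the augmin subunits. The median log2 fold change over the tested genes of each role, with genes of 3 reads or fewer set at their bound, was -5.36 for the cytokinesis motors, -5.23 for the chromosome motors, -5.11 for the spindle-associated proteins, -5.09 for the microtubule-end motors, -4.56 for the motors of spindle assembly, -4.49 for the cytokinesis factors and -1.77 for the augmin subunits. The augmin subunits kept the most by either measure, and no difference between roles was tested. With abemaciclib alone the same sums ranged from 20.2% for the motors of spindle assembly to 53.7% for the augmin subunits. With fulvestrant alone they ranged from 9.37% for the microtubule-end motors to 39.9% for the augmin subunits. The plot of sums by role shows the 3 libraries of each group.

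**Figure D2:**
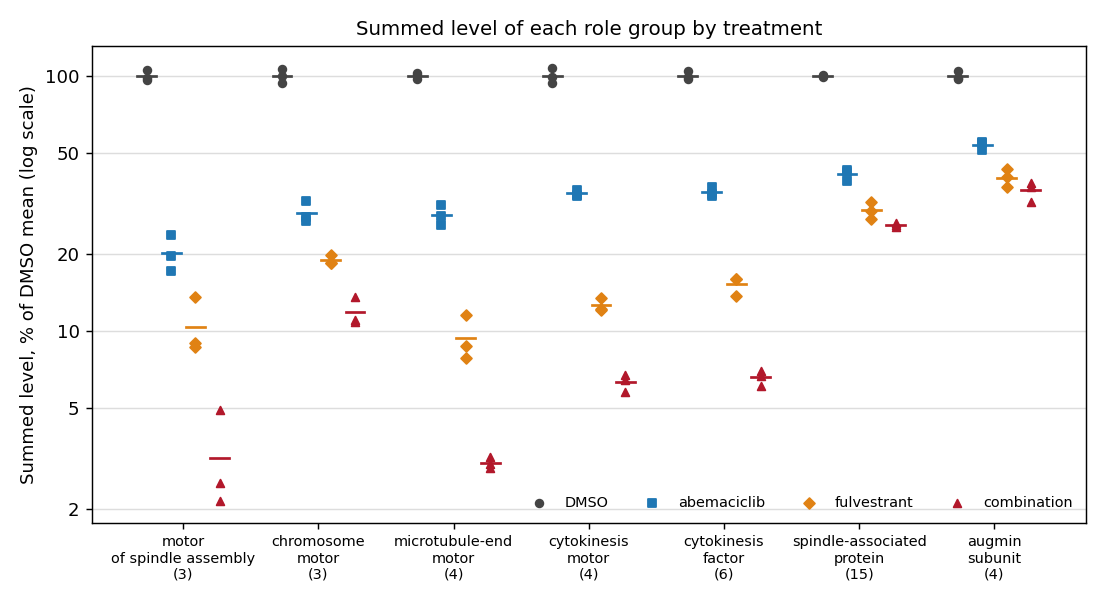
Summed level of the members of each role in every library, as a percentage of the DMSO mean on a log scale, with the number of genes in parentheses and the group mean as a bar. Motors and cytokinesis factors ended between 3.04% and 11.8% of DMSO in the combination, and the augmin subunits at 35.6%.

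Abemaciclib alone lowered nearly every tested member. The question is what CDK4/6 inhibition does without an antioestrogen: 36 of 37 members were called lower, where 20.7% of all genes tested were called lower and 41.2% in either direction. No member was higher by edgeR or by DESeq2 (0 by each, and 0 at an unadjusted p under 0.05). The median member change was -1.65 and the median over all genes was 0.00046. The largest falls were in KIF14, a motor of the midbody (-2.68 ± 0.19), KIF20A, which carries the chromosomal passenger complex to the midzone (-2.56 ± 0.17), and CKAP2L, a spindle protein (-2.56 ± 0.12). The smallest were in HAUS6, an augmin subunit (-0.47 ± 0.12, edgeR adjusted p = 0.00268), and CKAP5, a microtubule polymerase (-0.52 ± 0.11, edgeR adjusted p = 0.000355). NUMA1, which ties dynein to the spindle poles and resides in the nucleus between divisions, was the single member not called, at -0.038 ± 0.10 (edgeR adjusted p = 0.786). In 37 of the 39 members every abemaciclib library lay below every DMSO library, where 27.2% of the genes tested did so. The call for KIF24 was lost in 6 alternatives, among them without DMSO replicate 3 and without abemaciclib replicate 1 or 2 (adjusted p 0.0507 to 0.174), and that for KIF18A without abemaciclib replicate 1 (edgeR adjusted p = 0.0599).

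Fulvestrant alone lowered 36 of 37 members and raised 1, NUMA1, where 25.7% of all genes tested were called lower, 25.3% higher and 51% in either direction. The comparison asks what ER degradation does by itself. The median member change was -2.94, beside 0.0075 over all genes. The largest falls were in KIF24, a depolymerase of centriolar microtubules (-3.76 ± 0.46), DLGAP5, a stabiliser of kinetochore fibres (-3.75 ± 0.22), and KIF14 (-3.70 ± 0.22). NUMA1 rose by 0.34 ± 0.10 (edgeR adjusted p = 0.00473), and the smallest falls were in CKAP5 (-0.68 ± 0.11) and KIF22 (-1.01 ± 0.12). The libraries were separated in the lower direction in 37 of 39 members, against 28.1% of genes tested.

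The combination lowered the same number of members, 36 of 37, and raised NUMA1, where 27.5% of all genes tested were called lower, 27.7% higher and 55.2% in either direction, but the falls were deeper. The median member change from DMSO was -4.42, beside 0.01 over all genes. Several transcripts all but vanished. PIMREG had 0 reads in the 3 combination libraries against 228 in DMSO, which is at least 79.8-fold lower, taking 3 counts over the group as the limit that a count of 0 allows. This limit takes the DMSO count as exact, and the 95% exact counting interval for PIMREG starts at 64.4-fold. CEP55, which brings the abscission machinery to the midbody, had 1 read against 612, a ratio of 643 (95% exact counting interval 115 to 25423). CKAP2L had 3 reads against 1768, a ratio of 619 (211 to 3004), and KIF2C, a depolymerase at centromeres and microtubule ends, had 1 read against 393, a ratio of 413 (73.6 to 16340). DLGAP5 with 2 reads and KIF18B with 2 reads had ratios of 285 (78.5 to 2360) and 97.1 (26.5 to 808). At the other end stood NUMA1 (0.69 ± 0.10, edgeR adjusted p = 9.8e-07), CKAP5 (-0.72 ± 0.11) and KIF22 (-1.01 ± 0.12). Libraries were separated in the lower direction in 37 of 39 members, against 30.7% of genes tested.

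Adding fulvestrant to abemaciclib lowered 33 of 37 members and raised NUMA1, where 17.7% of all genes tested were called lower, 15.9% higher and 33.5% in either direction. The median member change was -2.96. PIMREG was at least 21.7-fold lower than with abemaciclib alone by the same limit, and its exact counting interval starts at 17.1-fold. The counting ratios for CEP55 and CKAP2L were 147 (25.9 to 5840) and 105 (35.7 to 513). NUMA1 rose by 0.73 ± 0.10 (edgeR adjusted p = 1.2e-06). The 3 members not called were KIF22 at 0.14 ± 0.13 (edgeR adjusted p = 0.412), CKAP5 at -0.20 ± 0.11 (edgeR adjusted p = 0.182) and HAUS1 at -0.38 ± 0.26 (edgeR adjusted p = 0.266). In 35 of 39 members the libraries were separated in the lower direction, against 24.7% of genes tested. The call for CKAP2, at -0.38 ± 0.13, was lost without abemaciclib replicate 1 or 3 and without combination replicate 1 or 3 (edgeR adjusted p 0.0739 to 0.12).

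Adding abemaciclib to fulvestrant lowered 23 of 37 members, in a comparison in which 1.63% of all genes tested were called lower, 0.297% higher and 1.92% in either direction. The count of members higher was 0 by edgeR and 0 by DESeq2, and 1, NUMA1, at an unadjusted p under 0.05. The median member change was -1.72 and the median over all genes was 0.00084. PIMREG was at least 6.69-fold lower than with fulvestrant alone by the same limit, and its exact counting interval starts at 4.87-fold. CEP55 had a ratio of 63.7 (11.0 to 2564) and CKAP2L of 49.2 (16.4 to 242). Other marked falls were in KIF4A, a chromosome motor that also works at the midzone (-4.61 ± 0.34, edgeR adjusted p = 1.8e-10), KIF20A (-4.04 ± 0.49, edgeR adjusted p = 1.9e-06) and TACC3, which crosslinks kinetochore fibres (-3.73 ± 0.31, edgeR adjusted p = 7.5e-08). In 27 of 39 members the libraries were separated in the lower direction, against 7.44% of genes tested.

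The 14 members not called in that comparison included most of those that had kept transcript. Values close to 0 were seen for HAUS6 (0.016 ± 0.14, 95% interval -0.27 to 0.30), KIF22 (-0.0026, 95% interval -0.26 to 0.26), CKAP5 (-0.037 ± 0.11, 95% interval -0.27 to 0.20), CKAP2 (-0.11 ± 0.14, 95% interval -0.39 to 0.17), HAUS8 (-0.16 ± 0.20, 95% interval -0.57 to 0.26) and KNSTRN (-0.25 ± 0.15, 95% interval -0.56 to 0.05). For others the interval was wide and included sizeable changes, as for KIF24 (1.12 ± 0.65, 95% interval -0.21 to 2.46), KIF15 (0.21 ± 0.43, 95% interval -0.68 to 1.09), KIF18A (-1.06 ± 0.75, 95% interval -2.60 to 0.48) and FAM83D (-2.94 ± 0.71, edgeR adjusted p = 0.0547). ECT2 (-0.40 ± 0.15), KIF23 (-0.76 ± 0.25), PSRC1 (-0.52 ± 0.18) and NUMA1 (0.34 ± 0.10, edgeR adjusted p = 0.0634) make up the rest. FAM83D passed in 8 alternatives, DESeq2 among them and also without DMSO replicate 1 or 3, and NUMA1 passed as higher in 4, among them without DMSO replicate 1, abemaciclib replicate 2 or fulvestrant replicate 3. The calls for HAUS1, KIF18B and RACGAP1 were lost in 9, 8 and 4 alternatives (adjusted p up to 0.178, 0.194 and 0.164), including without fulvestrant replicate 1 and without combination replicate 1 in each case. HAUS1 and KIF18B also lost theirs without DMSO replicate 2, fulvestrant replicate 2 or combination replicate 2, KIF18B without abemaciclib replicate 3, and HAUS1 and RACGAP1 without combination replicate 3.

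The single drugs were also compared with each other. Fulvestrant left 29 of 37 members lower than abemaciclib did, with a median of -1.19, and 1 higher, NUMA1 (0.38 ± 0.10, edgeR adjusted p = 0.00409), where 15.5% of all genes tested were called lower, 13.4% higher and 29% in either direction. The widest gaps were in KIF24 (-2.90 ± 0.51), KIF18A (-1.99 ± 0.49) and FAM83D, which recruits casein kinase 1 to the spindle (-1.71 ± 0.38). KIF24 and KIF18A had 6 and 11 reads in fulvestrant against 53 and 50 in abemaciclib. Their counting ratios were 7.85 (3.38 to 22.3) and 4.04 (2.07 to 8.60). Not called were KIF11 (-0.41 ± 0.23, edgeR adjusted p = 0.198), KIF18B (-0.89 ± 0.46, edgeR adjusted p = 0.161), PSRC1 (-0.37 ± 0.16, edgeR adjusted p = 0.0953), CKAP2 (-0.27 ± 0.13, edgeR adjusted p = 0.135), CKAP5 (-0.16 ± 0.11, edgeR adjusted p = 0.322), KIF22 (0.15 ± 0.13, edgeR adjusted p = 0.439) and HAUS1 (0.57 ± 0.24, edgeR adjusted p = 0.0717). In 32 of 39 members the libraries were separated in the lower direction, against 21% of genes tested. Calls that were lost without 1 library were HAUS8 (abemaciclib replicate 1 or 2, fulvestrant replicate 1 or 2), KIF20A (abemaciclib replicate 2, fulvestrant replicate 3), KIF2C (abemaciclib replicate 1) and NUMA1 (abemaciclib replicate 2), with edgeR adjusted p between 0.0537 and 0.151 over all alternatives that lost them. CKAP2 passed as lower without fulvestrant replicate 3 (edgeR adjusted p = 0.0212).

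Among the motors of spindle assembly, KIF11 slides antiparallel microtubules to push the poles apart, KIF15 can take over part of that work, and KIFC1 gathers minus ends at the poles. KIF11 (ENSG00000138160) stood at 44.5, 35.3 and 38.03 CPM in DMSO, 9.20, 7.51 and 8.59 in abemaciclib, 5.19, 7.33 and 6.61 in fulvestrant and 2.41, 1.03 and 1.55 in the combination. Every step down was free of overlap, though the lowest abemaciclib library, at 7.51 CPM, lay just above the highest fulvestrant library, at 7.33 CPM, and that step was not called (-0.41 ± 0.23, edgeR adjusted p = 0.198). The change from DMSO was -2.21 ± 0.18 with abemaciclib, -2.62 ± 0.19 with fulvestrant and -4.56 ± 0.23 with the combination (edgeR adjusted p at most 9.3e-11). KIF15 had its lowest mean in fulvestrant, with 0.564 CPM in replicate 2, and 7.88% of DMSO there against 9.66% in the combination, and these groups overlapped. KIFC1 fell to 18.8%, 9.13% and 1.17% of DMSO in the 3 treatments.

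Among the chromosome motors, CENPE carries chromosomes along spindle fibres to the metaphase plate, KIF4A compacts and pushes chromosome arms, and KIF22 pushes arms away from the poles. CENPE stood at 179, 166 and 157 CPM in DMSO, 45.4, 45.03 and 36.1 in abemaciclib, 15.1, 15.2 and 26.2 in fulvestrant and 2.41, 4.76 and 5.83 in the combination. Its groups did not overlap at any step, and the change reached -5.23 ± 0.21 in the combination (edgeR adjusted p = 7.8e-13). KIF4A fell from a DMSO mean of 113 CPM to 6 reads in all 3 combination libraries, a ratio of 264 (121 to 719). Its near-identical copy KIF4B had 3 reads in all 12 libraries. KIF22 stood at 75.4, 76.8 and 74.4 CPM in DMSO, 40.02, 31.1 and 30.1 in abemaciclib, 39.3, 39.8 and 33.7 in fulvestrant and 35.8, 33.9 and 42.3 in the combination. All 3 treatments lowered it by about 1 on the log2 scale (-1.16 ± 0.12, -1.01 ± 0.12 and -1.01 ± 0.12), their libraries overlapped with each other, and the combination retained 49.5% of DMSO. Of its last 1000 exonic bases, 56.1% lie under a gene annotated on the opposite strand, and the part of that overlap in the count was not tested.

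Among the motors that act on microtubule ends, KIF18A dampens the movements of chromosomes at the plate and KIF18B limits astral microtubules. KIF2C stood at 31.8, 28.7 and 27.9 CPM in DMSO, 8.20, 5.08 and 4.30 in abemaciclib, 3.46, 1.13 and 2.51 in fulvestrant and 0, 0.207 and 0 in the combination. A single combination library held a read, and the DMSO, abemaciclib and fulvestrant libraries did not overlap. KIF18A, at low levels, stood at 8.90, 8.74 and 6.82 CPM in DMSO, 2.60, 5.08 and 3.54 in abemaciclib, 0.741, 0.846 and 1.14 in fulvestrant and 0.962, 0.414 and 0 in the combination. Fulvestrant and the combination overlapped, and DMSO lay above every treated library. KIF24 stood at 6.53, 6.65 and 8.27 CPM in DMSO, 3.20, 4.19 and 4.55 in abemaciclib, 0.247, 1.13 and 0.228 in fulvestrant and 0.722, 1.24 and 1.36 in the combination. Its lowest group was fulvestrant at 7.47% of DMSO, beside 15.5% in the combination and 55.7% in abemaciclib, and fulvestrant and the combination overlapped.

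Among the cytokinesis motors, KIF23 and RACGAP1 form centralspindlin, which organises the midzone, and KIF20B acts late, in abscission. KIF20A stood at 45.1, 53.2 and 54.98 CPM in DMSO, 7.60, 10.8 and 7.58 in abemaciclib, 5.19, 5.92 and 4.33 in fulvestrant and 0, 0.414 and 0.388 in the combination. The 4 groups did not overlap, and the combination held 4 reads in all, a ratio to DMSO of 183 (71.2 to 674). KIF23 stood at 58.8, 45.6 and 50.6 CPM in DMSO, 20.4, 17.4 and 18.4 in abemaciclib, 7.41, 6.77 and 6.38 in fulvestrant and 4.33, 2.89 and 4.85 in the combination. Here too the groups were apart at every step, although the difference between the combination and fulvestrant was not called (-0.76 ± 0.25, edgeR adjusted p = 0.143). KIF14 and KIF20B fell to 0.65% and 8.82% of DMSO in the combination.

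Among the cytokinesis factors, PRC1 bundles antiparallel microtubules, ECT2 activates RhoA at the equator, ANLN scaffolds the contractile ring and ARHGAP11A restrains RhoA. RACGAP1 stood at 45.4, 40.9 and 45.1 CPM in DMSO, 16.8, 18.3 and 17.7 in abemaciclib, 9.39, 7.62 and 9.80 in fulvestrant and 4.33, 5.38 and 4.66 in the combination. PRC1 stood at 48.7, 55.5 and 48.8 CPM in DMSO, 13.4, 11.04 and 13.1 in abemaciclib, 7.17, 7.33 and 7.52 in fulvestrant and 2.65, 1.86 and 3.30 in the combination. Both genes stepped down without overlap, to 10.9% and 5.11% of DMSO. For PRC1, 85% of the last 1000 exonic bases lie under another gene annotated on the same strand, whose part in the count was not tested. ANLN stood at 85.5, 85.1 and 96.5 CPM in DMSO, 35.01, 38.6 and 40.4 in abemaciclib, 15.1, 17.5 and 14.4 in fulvestrant and 3.37, 4.14 and 2.72 in the combination. CEP55 stood at 53.7, 43.7 and 41.5 CPM in DMSO, 10.4, 11.04 and 9.60 in abemaciclib, 3.21, 7.62 and 3.19 in fulvestrant and 0, 0 and 0.194 in the combination. In both genes no library overlapped between neighbouring groups, and CEP55 was left with 1 read in the combination. ECT2 stood at 97.4, 85.1 and 89.9 CPM in DMSO, 46.02, 47.9 and 51.5 in abemaciclib, 16.8, 20.9 and 23.7 in fulvestrant and 13.2, 16.1 and 17.1 in the combination. Its combination and fulvestrant libraries overlapped, and it kept 17.1% of DMSO, the largest share of the 6 factors. ARHGAP11A fell to 2.90% of DMSO in the combination, and its near-identical copy ARHGAP11B had 5 reads in all 12 libraries.

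Among the spindle-associated proteins, TPX2 activates Aurora A and nucleates microtubules near chromosomes, HMMR and ASPM act at spindle poles, and TACC3 works with CKAP5 on kinetochore fibres. TPX2 stood at 286, 274 and 242 CPM in DMSO, 89.2, 88.3 and 77.6 in abemaciclib, 33.4, 33.6 and 36.9 in fulvestrant and 15.2, 11.99 and 12.04 in the combination. HMMR stood at 85.2, 65.4 and 56.4 CPM in DMSO, 18.6, 14.8 and 13.6 in abemaciclib, 5.68, 4.23 and 6.61 in fulvestrant and 0.481, 0.207 and 0.777 in the combination. ASPM stood at 149.6, 116 and 115 CPM in DMSO, 43.8, 43.05 and 50.8 in abemaciclib, 18.3, 16.4 and 25.1 in fulvestrant and 5.53, 5.58 and 6.41 in the combination. All 3 stepped down with no overlap between neighbouring groups, and their changes in the combination were -4.36 ± 0.11, -7.03 ± 0.29 and -4.42 ± 0.16. TACC3 stood at 123, 170.3 and 176 CPM in DMSO, 48.8, 56.5 and 52.1 in abemaciclib, 21.2, 23.1 and 16.2 in fulvestrant and 1.44, 0.620 and 2.33 in the combination. It kept 33.6% of DMSO in abemaciclib and 12.9% in fulvestrant, but 0.94% in the combination, where 21 reads remained. SPAG5, which protects sister chromatid cohesion at the spindle, fell to 1.68% and FAM83D to 1.60%. PSRC1, CKAP2 and KNSTRN, a kinetochore and spindle protein, kept more, at 13.7%, 41.3% and 21.3%.

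CKAP5 and NUMA1 departed from the rest. CKAP5 stood at 74.5, 62.9 and 65.5 CPM in DMSO, 46.6, 41.7 and 53.1 in abemaciclib, 42.5, 40.1 and 43.5 in fulvestrant and 40.9, 40.7 and 41.4 in the combination. The 3 treatments fell within 40.1 to 53.1 CPM, below every DMSO library, and CKAP5 retained 60.6% of DMSO in the combination. NUMA1 (chr11:72002864-72080693, minus strand, GRCh38) stood at 123, 139.9 and 147 CPM in DMSO, 149, 112 and 139 in abemaciclib, 170.2, 158 and 192 in fulvestrant and 229, 218 and 215 in the combination. Abemaciclib overlapped with DMSO, every fulvestrant library lay above every DMSO library, and every combination library lay above all 9 others. Of the last 1000 exonic bases of NUMA1, 67.5% lie under genes annotated on the opposite strand, and the part of these genes in its count was not tested. The plot of retained members shows these genes beside KIF22, CKAP2, HAUS6 and HAUS8.

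**Figure D3:**
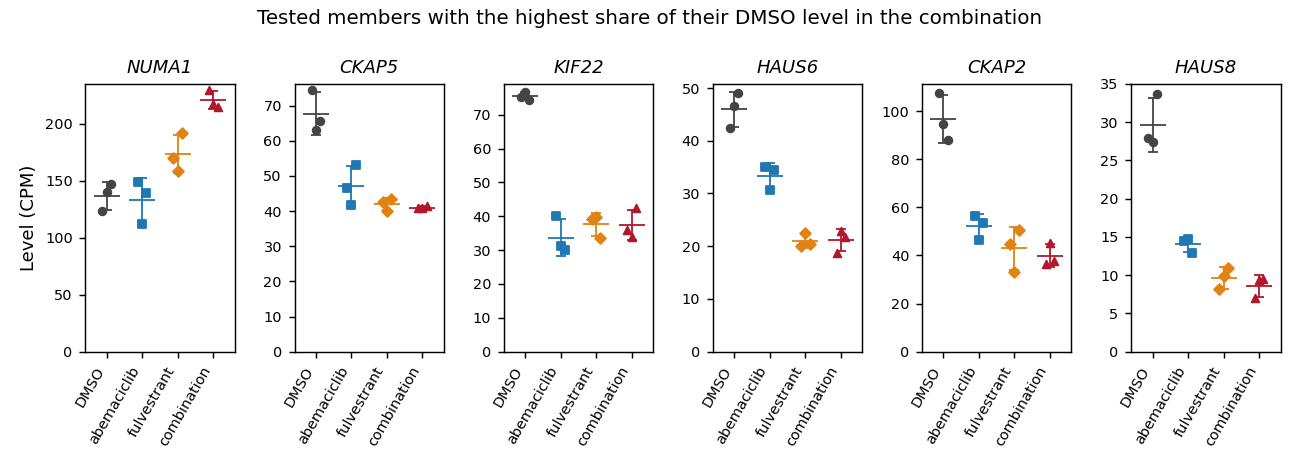
Level in CPM of the 6 tested members with the highest share of DMSO in the combination, with a point for each library and mean ± SD (n = 3) for each group. NUMA1 rises to 221 CPM in the combination, while KIF22, HAUS6, CKAP2 and HAUS8 fall with each treatment and overlap between fulvestrant and the combination.

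Augmin docks on existing spindle microtubules and seeds new ones from their sides, and 4 of its subunits are members. HAUS1 stood at 26.1, 20.7 and 18.4 CPM in DMSO, 5.00, 5.52 and 6.82 in abemaciclib, 7.66, 9.87 and 8.20 in fulvestrant and 4.33, 4.34 and 4.47 in the combination. It was lower in abemaciclib (26.6% of DMSO) than in fulvestrant (39.5%) by mean, a difference that was not called (0.57 ± 0.24, edgeR adjusted p = 0.0717). HAUS6 stood at 42.4, 46.6 and 48.99 CPM in DMSO, 35.01, 30.7 and 34.4 in abemaciclib, 20.01, 22.6 and 20.5 in fulvestrant and 18.8, 22.95 and 21.7 in the combination. HAUS8 stood at 27.9, 27.4 and 33.7 CPM in DMSO, 14.4, 14.8 and 12.9 in abemaciclib, 8.15, 9.87 and 10.9 in fulvestrant and 6.98, 9.30 and 9.51 in the combination. HAUS6 and HAUS8 fell with either drug, and with fulvestrant present the levels with and without abemaciclib overlapped. HAUS4, at low counts and not tested in the fit on all libraries, stood at 2.08, 3.04 and 3.51 CPM in DMSO, 1.00, 0.441 and 0.758 in abemaciclib, 0.988, 0.846 and 0.456 in fulvestrant and 1.92, 1.65 and 0.971 in the combination. Its summed reads were 40, 10, 9 and 21 in the 4 groups, and 63.9% of its last 1000 exonic bases lie under another gene on the same strand.

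NUSAP1, a spindle protein that bundles microtubules near chromosomes, could not be followed. It stood at 0.890, 0.380 and 0 CPM in DMSO and had 0 reads in all 9 treated libraries. Only 5 reads were assigned to it in 12 libraries, which is too few for a test. Of its exonic bases, 86.8% lie under another gene annotated on the same strand, a share that reached 94.6% in the last 1000 bases, and the part of this overlap in the count was not tested.

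The interaction asked whether abemaciclib changed a member by a different amount with fulvestrant present than without it: the difference between combination and fulvestrant minus the difference between abemaciclib and DMSO, on the log2 scale. It was called negative in 7 of 37 members, meaning a deeper fall with fulvestrant present, and positive in 11, meaning a shallower fall or a rise. Over all genes tested the shares were 11.6% and 9.49%, or 21.1% in either direction. The member median was 0.23 and the median over all genes -0.01. The positive count was 7 without DMSO replicate 2, abemaciclib replicate 2, fulvestrant replicate 1 or combination replicate 3 and 6 by DESeq2, and the median was 0.12 without combination replicate 1 and 0.16 without fulvestrant replicate 1. Counts and medians with a library left out include HAUS4 where such a fit tested it. The calls lost and gained named below are those of the 37 members. Negative values were found for KIF4A (-2.57 ± 0.42, edgeR adjusted p = 6.1e-05), CKAP2L (-2.89 ± 0.52, edgeR adjusted p = 0.000218), TACC3 (-2.15 ± 0.37, edgeR adjusted p = 0.000295) and CEP55 (-3.38 ± 0.88, edgeR adjusted p = 0.00678). The clearest positive values were those of KIF22 (1.15 ± 0.17, edgeR adjusted p = 2.3e-05), PSRC1 (1.46 ± 0.22, edgeR adjusted p = 2.9e-05), KNSTRN (0.93 ± 0.19, edgeR adjusted p = 0.000767) and KIF15 (2.25 ± 0.50, edgeR adjusted p = 0.00193). For KIF11 the value was 0.26 ± 0.41 (edgeR adjusted p = 0.712), and for CENPE it was -0.12 ± 0.31 (edgeR adjusted p = 0.832). With 1 to 3 reads left in the combination, as for CEP55 and CKAP2L, the fitted value depends on the prior count and is no bound. With 1 library left out, calls were lost for CKAP5, HAUS1, KIF20B, KIF24 and NUMA1 in 8 to 10 of the 12 cases each, for PIMREG in 4 and for SPAG5 in 2. Calls were gained as negative for HMMR (without DMSO replicate 1), FAM83D (DMSO replicate 3), DLGAP5 (abemaciclib replicate 1) and KIF2C (fulvestrant replicate 2), and as positive for ECT2 (fulvestrant replicate 3 or combination replicate 1), HAUS6 (combination replicate 1) and KIF23 (combination replicate 2), with edgeR adjusted p between 0.0135 and 0.0488. The plot of the change by abemaciclib places each member by both differences.

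**Figure D4:**
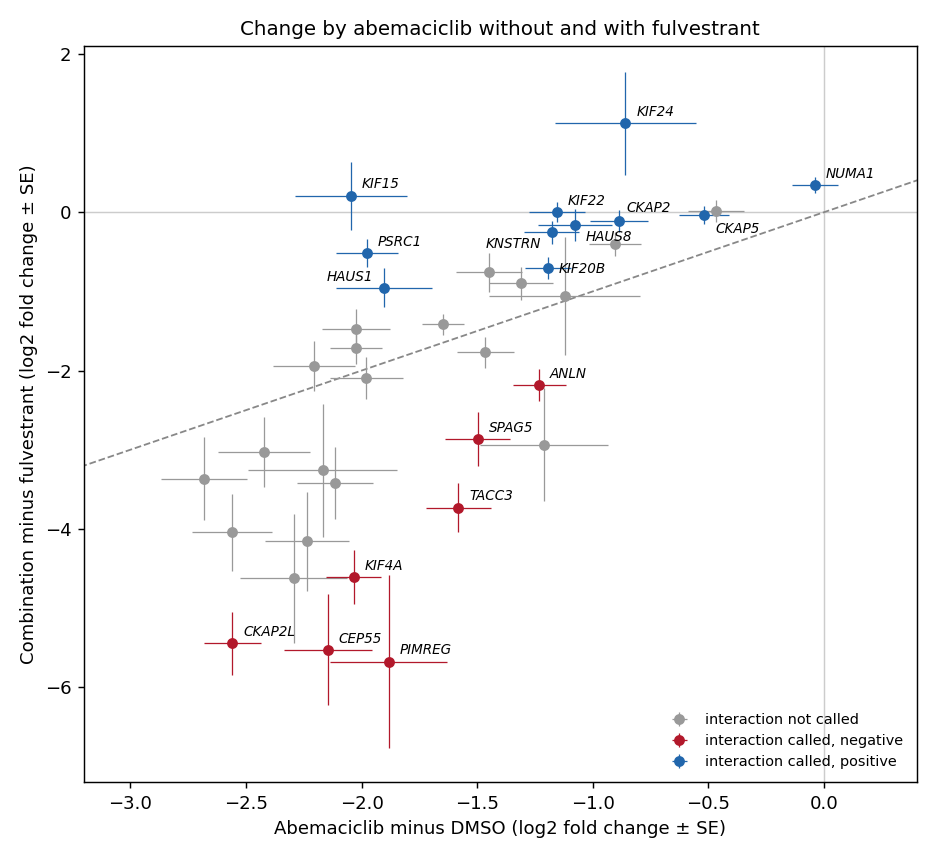
Log2 fold change ± SE of abemaciclib against DMSO (horizontal axis) and of the combination against fulvestrant (vertical axis) for the 37 tested members, with a dashed line where both are equal. The 7 red members lie below the line, down to PIMREG and CEP55, and the 11 blue members lie above it, with KIF15 and KIF24 above 0 on the vertical axis. PIMREG had 0 reads and CEP55 1 read in the combination, so their fitted positions depend on the prior count and are no bounds.

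Other genes of the same machinery were called in both directions, in a comparison of the combination with DMSO in which 27.5% of all genes tested were lower and 27.7% higher. Of 23 other kinesins tested, which mostly carry cargo, 7 were called lower and 8 higher, with a median of 0.067. The shares of this list and of the other cytokinesis genes lay near those over all genes. KIFC3 rose with abemaciclib, fulvestrant and the combination (1.38 ± 0.21, 2.82 ± 0.18 and 2.87 ± 0.18). KIF12 fell by 1.80 with fulvestrant and 1.37 with the combination, and was at 0.28 with abemaciclib (edgeR adjusted p = 0.306). KIF2A, a relative of KIF2C, fell by 0.38, 0.50 and 0.72 on the log2 scale. Of 44 other spindle and microtubule genes, 21 were called lower and 11 higher, with a median of -0.40. GTSE1, a G2 and mitosis gene, fell by 3.10 with abemaciclib and 3.90 with fulvestrant, GPSM2, a spindle orientation protein that binds NUMA1, fell by 1.22 and 1.52, and STMN1, which destabilises microtubules, fell by 1.18 and 1.37. Of 28 other cytokinesis genes, 8 were called lower and 10 higher, with a median of 0.071. CIT, the citron kinase of the midbody, fell by 2.17 with abemaciclib and 3.70 with fulvestrant and had 0 reads in the combination, and DIAPH3, a formin, fell by 4.95 in the combination. Of the heavy chains of non-muscle myosin, MYH9 rose by 1.02 with abemaciclib, 1.16 with fulvestrant and 1.00 with both, while MYH10 fell by 0.79, 0.92 and 1.01. With abemaciclib alone the counts lower and higher were 3 and 9 for the other kinesins, 18 and 7 for the other spindle genes and 6 and 8 for the other cytokinesis genes, beside 20.7% and 20.5% of all genes. With fulvestrant alone they were 5 and 5, 20 and 10, and 8 and 11, beside 25.7% and 25.3% of all genes. When abemaciclib was added to fulvestrant, 4 other spindle genes and 2 other cytokinesis genes were called lower, beside 1.63% of all genes.

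**Figure D5:**
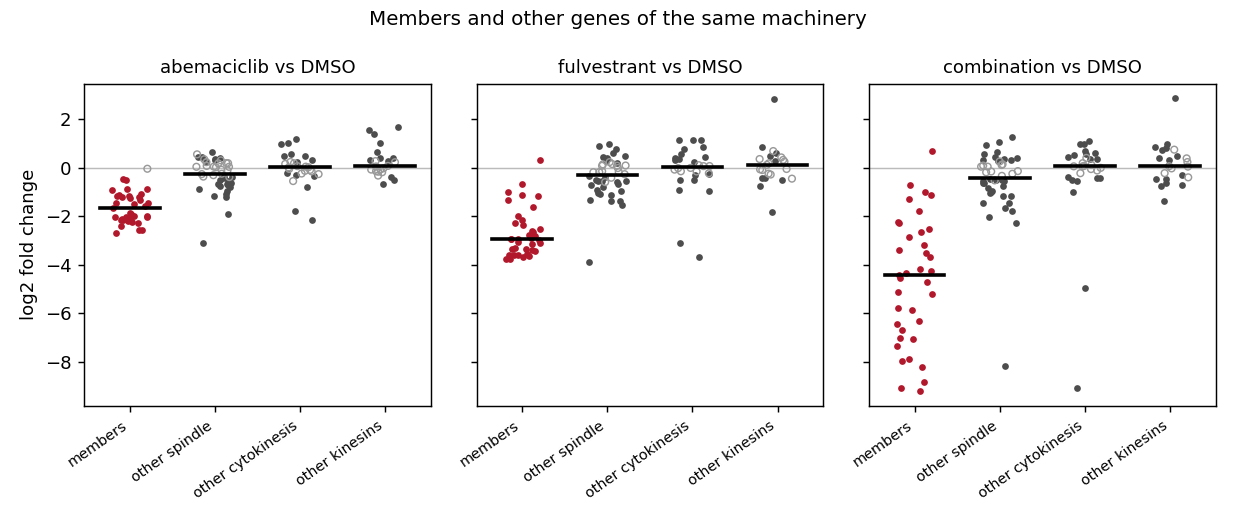
Log2 fold change from DMSO of the 37 tested members and of the tested genes of 3 other lists, in 3 panels by treatment, with filled points for called genes, open points for genes not called and bars for medians. The member medians of -1.65, -2.94 and -4.42 lie well below those of the other lists, which stay between -0.40 and 0.12.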

How the data were processed

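Transcripts were measured by 3′ RNA sequencing (QuantSeq 3′ mRNA FWD) in 12 libraries of CAMA-1 cells. The deposited table holds raw counts of reads for each gene symbol. For these, the methods of the study name trimming by BBDuk 38.90, and the authors aligned reads to GRCh38 with STAR 2.7.5b and assigned them to genes by featureCounts 2.0.1 on GENCODE 35. The strand setting and the handling of reads shared between genes are not given in the sources used here. Of 60656 rows, 44 without a gene name held 0 reads and were left out.

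The fit used edgeR 4.0.16 (limma 3.58.1, R 4.3.3): filterByExpr by group (minimum count 10, minimum total 15), TMM factors, and 1 robust quasi-likelihood model with 4 group means on all 12 libraries, with F tests for 6 pairwise comparisons and the interaction. P values were adjusted by the Benjamini-Hochberg method over 11803 genes (threshold 0.05), and SEs were derived from the F statistic. The common biological coefficient of variation was 0.0918. Alternatives were DESeq2 1.42.0 (the study's tool), RLE or upper-quartile factors, no filter, a mean of at least 5 CPM, only the groups compared, each library left out, a replicate block, a 2-fold threshold, thinning to the smallest total, and a prior count of 2 in place of 0.125. Counts were also simulated with the same mean in every group, and 200 genes with a mean of at least 5 CPM were changed 2-fold in the combination. Among 11594 genes, the combination against fulvestrant recovered 185 with 20 false calls and the interaction 138 with 8. In this run the share of false calls in the combination against fulvestrant exceeded the 0.05 at which the adjustment aims. Recovery at lower levels, where many members lay in the combination, was not simulated.

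The members, the other lists and the named genes were chosen with earlier results of these data known. Values in every library were given for 24 preset members, and each comparison names its 3 lowest and 3 highest members and those not called; genes of other lists were taken from the 3 most changed in each direction among those called with at least 10 CPM. Gene positions are from GENCODE v44 and promoters from RefSeq, both on GRCh38.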

Additional observations from a re-analysis of the deposited data

Results flagged for a closer look

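In 18 of the 37 tested members the change by abemaciclib differed according to whether fulvestrant was present, by edgeR's quasi-likelihood test of that difference with Benjamini-Hochberg adjustment. Over all genes tested, 11.6% were called negative and 9.49% positive, or 21.1% in either direction. Values are log2 differences with the adjusted p in parentheses. Negative values, a deeper fall with fulvestrant, were found for PIMREG -3.79 (0.0308), CEP55 -3.38 (0.00678), CKAP2L -2.89 (0.000218), KIF4A -2.57 (6.1e-05), TACC3 -2.15 (0.000295), SPAG5 -1.37 (0.0126) and ANLN -0.96 (0.00496). Positive values, a shallower fall or a rise, were found for KIF15 2.25 (0.00193), KIF24 1.98 (0.048), PSRC1 1.46 (2.9e-05), KIF22 1.15 (2.3e-05), HAUS1 0.95 (0.0405), KNSTRN 0.93 (0.000767), HAUS8 0.92 (0.0118), CKAP2 0.77 (0.0033), KIF20B 0.49 (0.0425), CKAP5 0.48 (0.0294) and NUMA1 0.38 (0.0472).

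PIMREG had 0 reads in the combination, CEP55 had 1 and CKAP2L had 3, so their fitted values depend on the prior count and are no bounds. Of the 18 calls, 9 (CEP55, CKAP2L, KIF4A, TACC3, KIF15, PSRC1, KIF22, KNSTRN and CKAP2) held in every alternative with the 2-fold threshold left out. At the 2-fold threshold only KIF4A and CKAP2L kept their calls. The calls for ANLN and HAUS8 were lost when all libraries were thinned to the smallest total (edgeR adjusted p = 0.0573 and 0.123). SPAG5 lost its call in 3 alternatives, without combination replicate 1 or 2 and after thinning. PIMREG lost it in 6, among them without fulvestrant replicate 1 and without each combination replicate. CKAP5, HAUS1, KIF20B, KIF24 and NUMA1 lost theirs in 10 to 15 alternatives, DESeq2 included, and for each of them most single libraries left out sufficed (adjusted p up to 0.101, 0.40, 0.12, 0.139 and 0.185). Groups of 3 libraries were too small for a search for outlying samples.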

How the results depend on the processing

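Some fits with a library left out also tested HAUS4, so their counts and medians can cover more than the 37 members. Leaving out each library in turn gave, for members lower, members higher and the member median, 35 to 37, 0 to 0 and -1.76 to -1.63 (abemaciclib against DMSO). The same ranges were 36 to 37, 1 to 1 and -2.93 to -2.85 (fulvestrant against DMSO), 36 to 37, 1 to 1 and -4.58 to -4.30 (combination against DMSO), 32 to 33, 1 to 1 and -2.96 to -2.57 (combination against abemaciclib), 20 to 24, 0 to 1 and -1.77 to -1.51 (combination against fulvestrant), 27 to 29, 0 to 1 and -1.23 to -1.07 (fulvestrant against abemaciclib), and 5 to 8, 7 to 11 and 0.12 to 0.30 (interaction). With no filter the medians were -1.86 (abemaciclib), -4.35 (combination), -2.72 (combination against abemaciclib) and -1.48 (combination against fulvestrant, with 1 member, NUMA1, higher). At a mean of at least 5 CPM, which tests fewer members, they were -1.77, -4.49 and -2.84 in the first 3 of these. After thinning they were -2.996 (fulvestrant), -4.48, -2.72 and -1.60, and the interaction counts were 4 lower and 6 higher. With a prior count of 2 the medians were -2.81 (fulvestrant), -4.32, -2.53, -1.62, -1.13 (fulvestrant against abemaciclib) and 0.38 (interaction). Fitting only the groups compared gave -1.60 for combination against fulvestrant, with 19 of the 32 members tested there lower (37 in the fit on all groups), and DESeq2 gave 6 members higher in the interaction. Requiring a change of more than 2-fold left 23 members lower with abemaciclib and 2 lower in fulvestrant against abemaciclib. It left 0 higher in the comparisons in which NUMA1 had been called, and 2 lower and 0 higher in the interaction. The causes of these shifts were not tested except where the setting itself removes genes or raises the threshold.

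Signs turned in values that were not called. With 1 library left out, NUMA1 under abemaciclib ran from -0.13 to 0.076. In combination against fulvestrant KIF22 ran from -0.11 to 0.059, HAUS6 from -0.050 to 0.088, KIF15 from -0.21 to 0.50 and CKAP2 from -0.26 to 0.023. In the interaction CENPE ran from -0.40 to 0.21, KIF11 from -0.065 to 0.50 and KIF18A, fitted at 0.063, from -0.94 (without combination replicate 1) to 0.67. With a prior count of 2 the interaction of KIF18B turned from -1.09 to 0.24 and that of KIF14 from -0.68 to 0.30. Against fulvestrant, KIF22 was also 0.0049 with upper-quartile factors, 0.0016 with no filter and 0.00072 with the replicate block, and HAUS6 was -0.11 after thinning. The replicate numbers did not pair the samples: over 18 pairs of same-numbered libraries the correlation of deviations ran from -0.21 to 0.12, with 2 over 0.1. With the replicate block, 23 members were lower in combination against fulvestrant and 8 lower and 9 higher in the interaction. At these depths a level near 1 CPM rests on 3.37 to 5.26 reads per library, which limits KIF18A, KIF24, HAUS4 and every member near 0 in the combination.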

Other observations

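KIF3C, a motor of neuronal transport, rose by 1.68 ± 0.25 with abemaciclib (from 4.00 ± 0.66 to 13.1 ± 2.39 CPM, SD, n = 3; edgeR adjusted p = 3.9e-06) and stood at 4.30 ± 0.86 CPM in the combination, 1.62 ± 0.24 on the log2 scale below abemaciclib alone (edgeR adjusted p = 7.1e-06). Of the genes of non-muscle myosin chains named here, MYH9, MYL12A and MYL12B rose with either drug, and their interaction was negative, at -1.18 ± 0.11, -1.36 ± 0.16 and -1.01 ± 0.28 (edgeR adjusted p = 1.1e-08, 4.5e-06 and 0.0326). The mean level of MYH9 was 347 CPM with DMSO and 705, 774 and 695 CPM with abemaciclib, fulvestrant and both. MYH10 fell with either drug, and its interaction was 0.71 (edgeR adjusted p = 0.0604). STMN1 also fell with either drug, and its interaction was positive, at 0.78 ± 0.12 (edgeR adjusted p = 1.6e-05).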
